A study of Homo sapiens with 12 samples.

Results

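The genes described here belong to families that handle carbon dioxide, water and urea in red cells. They are the carbonic anhydrase family genes CA1, CA2, CA3, CA8 and CA13, the aquaporins AQP1 and AQP3, and the urea transporter SLC14A1. They were chosen by gene symbol for that role, with earlier results of these data known. Their 8 symbols were found among 28278 gene symbols of the count table. RNA sequencing had been done on K562, a human erythroleukaemia line derived from a patient with chronic myeloid leukaemia that carries the BCR-ABL1 fusion. The 4 groups of 3 libraries were wild-type (WT) cells and HRG1-KO cells, in which the gene of the heme transporter HRG1 (SLC48A1) is knocked out, each left untreated (control) or given sodium butyrate, a histone deacetylase inhibitor widely used to make K562 cells form hemoglobin. Treated cells received 0.75 mM sodium butyrate 24 h after plating and again 48 h later, and collection followed the second dose by 6 h. The design text puts the series at day 8 of differentiation. The labels do not say whether the KO cells are a single clone, how the gene was disrupted, or whether replicates were separate cultures, so the p-values measure the spread between these libraries, which may be technical, and a trait of the KO line cannot be told apart from loss of HRG1.

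Carbonic anhydrases, though not the family member CA8, interconvert carbon dioxide and bicarbonate. In red cells they work beside band 3, the chloride and bicarbonate exchanger, so that carbon dioxide from tissues can be carried as bicarbonate and released in the lung. AQP1 is the red cell's main water channel and carries the Colton blood group, AQP3 also lets glycerol through and carries the GIL blood group, and SLC14A1 (UT-B) lets urea cross quickly and carries the Kidd blood group.

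Library totals ran from 19963594 to 30348538 counts, and levels are given as CPM, in which library sizes were scaled by the trimmed mean of M values (TMM). The limit of detection used here is 3 counts, or 0.0953 to 0.162 CPM depending on the depth. The targeted gene SLC48A1 had 1357 to 1945 counts in untreated WT and 1380 to 1914 in treated WT libraries, against 55 to 196 and 131 to 313 in the KO libraries. Erythroid markers were present in all 4 groups: the summed level of 14 such genes was 8731 to 19707 CPM in untreated WT, 29209 to 78902 in treated WT, 4051 to 7187 in untreated KO and 5568 to 8035 in treated KO libraries. Megakaryocyte genes GP1BB and PF4 and the B-cell gene MS4A1 had 0 counts throughout. Replicate 1 of treated WT had the lowest TMM factor of all libraries (0.840). It also had the highest share of counts on the ribosomal RNA gene RNA28SN5 (5.63%, against 0.673% to 4.69% in the other 11 libraries). This followed the replicate number, as number 1 had the lowest factor and the highest share within each of the 4 groups. Its factor and share were 0.925 and 4.69% for WT control, 0.916 and 3.36% for KO control, and 1.006 and 2.30% for KO given butyrate. Member values that lost a call, changed order or moved over 1.5 times without treated WT replicate 1 are also given without that library. In bulk RNA, fewer cells that express a gene and less RNA per cell cannot be told apart.

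The aquaporins gave the highest levels per kilobase of exon in WT cells and AQP3 did so in KO cells. KO cells had less AQP1, CA1 and CA13 and more CA8 than WT cells, with and without butyrate, whereas AQP3 did not pass the test between genotypes. With butyrate, AQP1, CA1 and CA8 rose in WT cells. In KO cells no member passed the test, whereas AQP1 and AQP3 did with the replicate number as a block. CA2, CA3 and SLC14A1 were near the limit of detection and did not pass the count filter, so 5 of the 8 members were tested among 15805 genes with edgeR's quasi-likelihood test and Benjamini-Hochberg adjustment over all tested genes, with a threshold of 0.05. CA1 passed the filter through the treated WT libraries, so its being tested and its being high there are not separate facts.

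**Figure D1:**
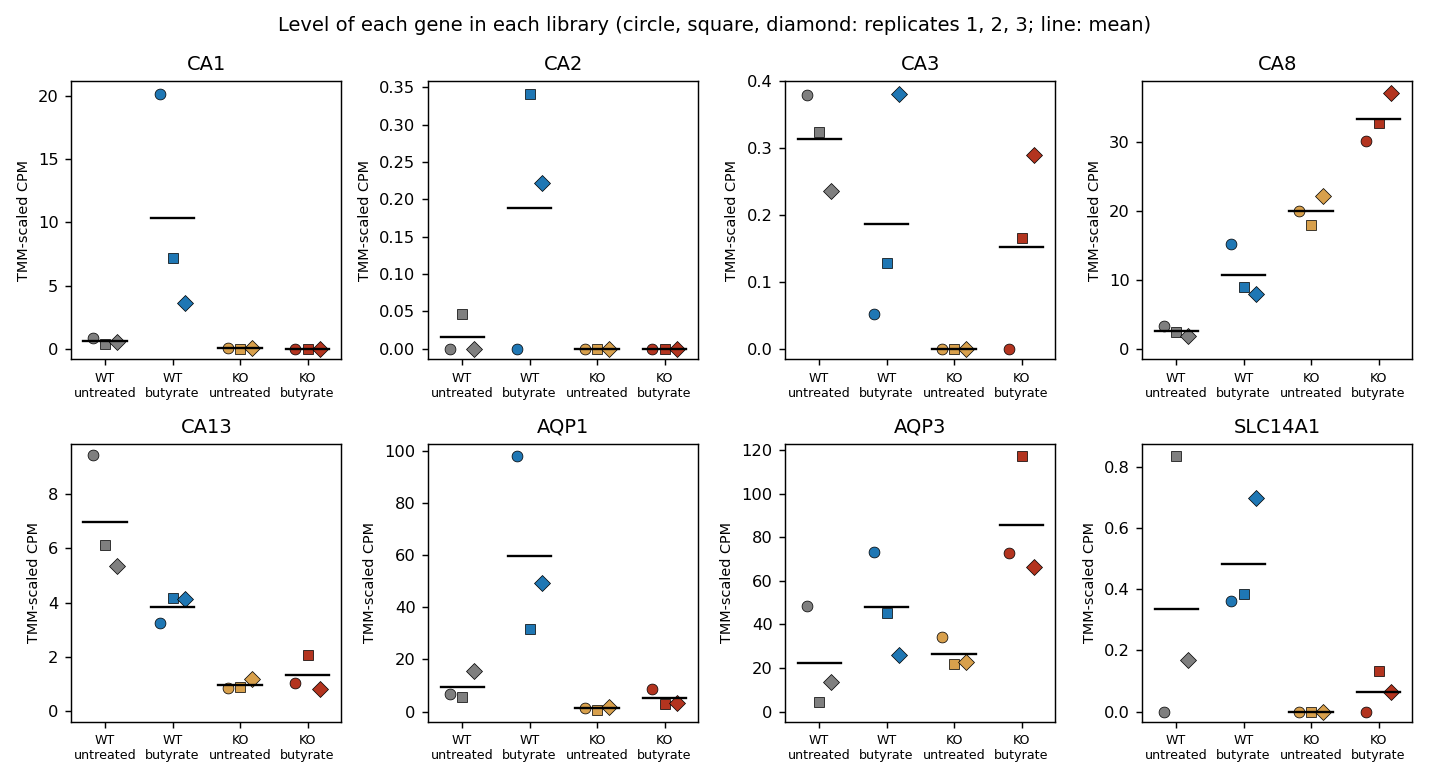
Level of each member in each library in TMM-scaled CPM, each panel with its own linear axis. Circles, squares and diamonds are replicates 1, 2 and 3, and lines are group means. CA8 had its highest level in treated KO cells (mean 33.3 CPM), while AQP1 and CA1 had theirs in treated WT cells (means 59.7 and 10.3 CPM).

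In the butyrate comparison in WT cells, 3 members passed the test, all higher (AQP1, CA1 and CA8), where 2.35% of tested genes passed and 1.8% were higher. In a fit of the WT libraries alone, 0 members passed, with adjusted p of 0.0658 for CA1, 0.0790 for CA8 and 0.0791 for AQP1. In KO cells 0 members passed, where 3.4% of tested genes did. 3 members had an unadjusted p under 0.05 there. No share of all tested genes was computed at an unadjusted p under 0.05, here or below. Counts at that cut therefore cannot be read as a result about the members or lists. In DESeq2 1 member passed, where 1538 genes did. When the replicate number was a block 2 members (AQP1 and AQP3) passed, where 11.7% of tested genes did. Among tested members, libraries of the compared groups did not overlap for AQP1, CA1, CA8 and CA13 in WT, as for 21.7% of tested genes, and for AQP1, AQP3 and CA8 in KO cells, as for 24.4%.

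Between genotypes, 4 members passed in untreated cells, 1 higher in KO (CA8) and 3 lower (AQP1, CA1 and CA13), against 22.6% of tested genes (11.7% higher and 10.9% lower). The same 4 passed in treated cells in the same directions, against 19.0% of tested genes (10.1% higher and 8.89% lower). The test of whether butyrate acted differently in the 2 genotypes (the interaction, as KO effect less WT effect) gave 0 members past the threshold in edgeR and in DESeq2, and 2 (CA1 and CA8) with an unadjusted p under 0.05. In that test 0.0% of tested genes passed in edgeR, and 86 genes passed in DESeq2. Where a member passed in a single genotype, a difference of response was therefore not shown. Among tested members, KO and WT libraries did not overlap for AQP1, CA1, CA8 and CA13 in untreated and treated cells, where 42.3% and 33.9% of tested genes did not.

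**Figure D2:**
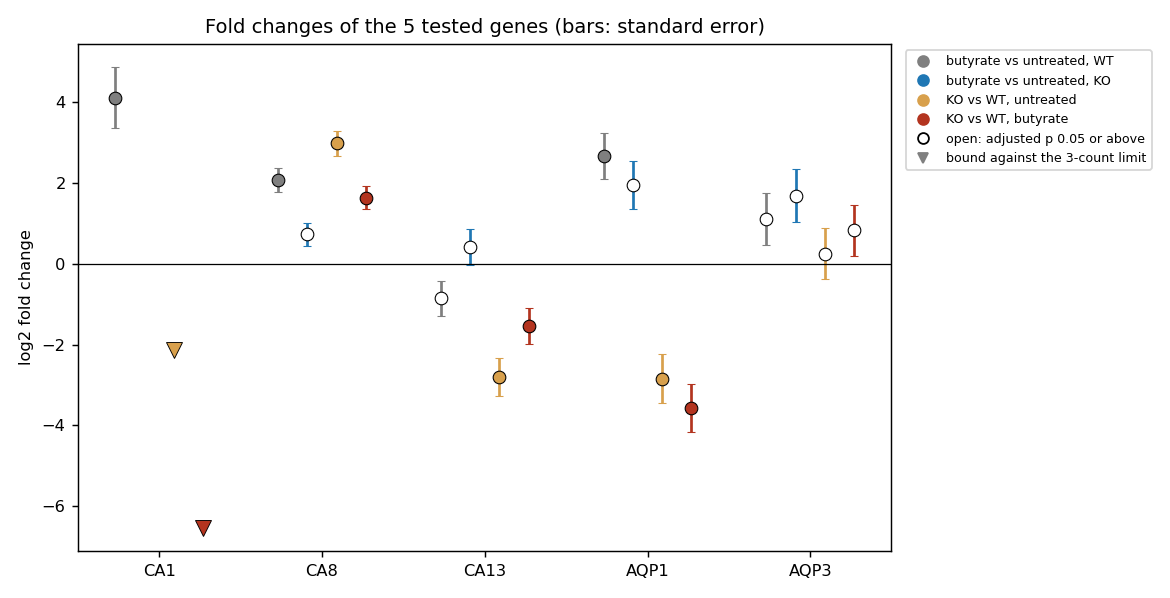
Log2 fold changes of the 5 tested members in 4 comparisons, with bars for the standard error, filled where the adjusted p was under 0.05 and open otherwise. Triangles mark CA1 in KO against WT as bounds against the limit of detection (at least 4.4-fold and 92.9-fold lower), and CA1 with butyrate in KO is not drawn because both groups were at the limit.

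AQP1 lies on the plus strand at chr7:30911694-30925516 (GRCh38, GENCODE 29). Untreated WT libraries had 6.82, 5.43 and 15.5 CPM, and treated WT libraries had 98.0, 31.6 and 49.4 CPM. Untreated KO libraries had 1.34, 0.666 and 1.84 CPM, and treated KO libraries had 8.68, 3.01 and 3.45 CPM. All treated libraries were above all untreated ones within each genotype, and all KO libraries were below all WT libraries within each treatment.

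AQP1 rose with butyrate in WT cells from 9.26 ± 5.48 to 59.7 ± 34.4 CPM (SD, n = 3 each), a log2 fold change of 2.68 (SE 0.57, edgeR adjusted p = 0.0335). Within replicate numbers the treated to untreated ratio was 14.4, 5.83 and 3.18. The call was lost in 4 of 12 fits that each left out 1 library: without untreated WT replicate 1 or 2 the adjusted p was 0.145, without treated WT replicate 2 it was 0.0543, and without treated WT replicate 3 it was 0.0687. Without treated WT replicate 1, the library with the highest value, the log2 fold change was 2.11 (adjusted p = 0.0375), and without untreated WT replicate 3 it was 3.29.

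In KO cells AQP1 went from 1.28 ± 0.589 to 5.05 ± 3.16 CPM (SD, n = 3 each), a log2 fold change of 1.95 (SE 0.59) that did not pass in edgeR (adjusted p = 0.0927). It passed with the replicate number as a block (adjusted p = 0.0154) and in DESeq2 (0.0107), and without treated KO replicate 1 the log2 fold change was 1.31 (adjusted p = 0.190). The KO to WT difference passed in each of the 12 fits that left out 1 library. It was -2.84 on the log2 scale in untreated cells (SE 0.60, edgeR adjusted p = 0.00474) and -3.57 in treated cells (SE 0.60, adjusted p = 0.00130), the latter -4.20 without treated KO replicate 1. The butyrate effects of the 2 genotypes differed by -0.73 (SE 0.80, interaction adjusted p = 1.00).

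In some of the comparisons, 2 other measures differed in the same direction as AQP1. The tested genes of chromosome 7, 713 in number, had a median KO to WT log2 difference of -0.78 in untreated and -0.85 in treated cells, with 37.4% and 38.8% of them called lower, while the median over all tested genes was 0.02 and -0.00. With butyrate the chromosome 7 median was 0.03 in WT and -0.002 in KO cells. The summed erythroid markers given above were higher in treated than in untreated WT libraries and lower in KO than in WT libraries. Their sums in untreated and treated KO libraries overlapped. The part of either in the AQP1 differences was not tested.

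AQP3 lies on the minus strand at chr9:33441154-33447633. Untreated WT libraries had 48.5, 4.36 and 13.8 CPM and treated WT libraries had 73.3, 45.3 and 25.9 CPM, so the WT groups overlapped and the untreated libraries differed more among themselves than the 2 group means did. Untreated KO libraries had 34.4, 22.0 and 22.9 CPM and treated KO libraries had 72.7, 117 and 66.5 CPM, with all treated KO libraries above all untreated ones. Replicate 2 of untreated WT was the lowest of the 12 libraries and replicate 2 of treated KO the highest.

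The log2 fold change of AQP3 with butyrate was 1.12 in WT (SE 0.64, edgeR adjusted p = 0.395) and 1.70 in KO cells (SE 0.65, adjusted p = 0.167), and neither passed. The WT value was 0.63 without untreated WT replicate 2 and 2.40 without untreated WT replicate 1, and did not pass in either fit (adjusted p = 0.648 and 0.0910). In KO cells it passed with the replicate block (1.80, adjusted p = 0.0444) and in a fit of the KO libraries alone (adjusted p = 0.0202). Without the 4 libraries numbered 1 it passed in WT (1.94, adjusted p = 0.0295) and in KO (2.02, adjusted p = 0.0223). Between genotypes the log2 difference was 0.25 in untreated (SE 0.64, adjusted p = 0.821) and 0.83 in treated cells (SE 0.63, adjusted p = 0.415), and the former took either sign when single WT libraries were left out. Tested genes of chromosome 9 had a median KO to WT log2 difference of -0.03 in untreated and in treated cells.

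AQP1 and AQP3 both had higher mean levels with butyrate in each genotype. In the fit of all 12 libraries without a block, AQP1 passed in WT only and AQP3 in neither genotype. Their upstream sequences are shown to compare the members with the highest levels per kilobase in WT cells. The sequences are from RefSeq (GRCh38.p14), in which the 250 bases before the start were searched on both strands for TATAAA, for the GC box GGGCGG, for CACCC, and for a GATA motif, which was taken as GATAA or GATAG with A or T before it. The RefSeq starts lie inside the first exon of the GENCODE 29 models, so the longer runs below are cut to bases upstream of the GENCODE start as well, 5′ to 3′, with GC boxes in capitals: chr7:30911603-30911693 on the plus strand for AQP1 and chr9:33447634-33447843 on the minus strand for AQP3.
AQP1: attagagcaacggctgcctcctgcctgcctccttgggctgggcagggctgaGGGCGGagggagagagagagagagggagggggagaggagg
AQP3: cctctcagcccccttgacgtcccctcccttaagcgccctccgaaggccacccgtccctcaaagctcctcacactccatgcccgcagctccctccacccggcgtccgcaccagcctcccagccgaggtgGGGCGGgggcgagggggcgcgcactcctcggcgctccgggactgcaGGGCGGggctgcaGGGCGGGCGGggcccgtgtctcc
Each gene also had TATAAA, in capitals in the next lines, upstream of the RefSeq start and downstream of the GENCODE start, at chr7:30911816-30911835 with its first base 30 bases before the RefSeq start of AQP1 and at chr9:33447613-33447632 with its first base 32 bases before that of AQP3.
AQP1 TATA site: ccggcccTATAAAtaggccc
AQP3 TATA site: gcgctccTATAAAgggagcc
Over its 250 bases AQP1 had 3 GC boxes and 65.2% G and C, and AQP3 had 4 GC boxes, a pair of which overlap, and 73.6% G and C. Among 35116 windows of the same length, 10.7% held TATAAA, 42.6% GGGCGG, 54.7% CACCC and 22.3% a GATA motif. CACCC was in the AQP3 and not in the AQP1 window, and the GATA motif was in neither. Both entries of SLC14A1 in that table held none of the 4 motifs. A match describes these letters and is not a binding site.

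CA1, CA3, CA2 and CA13 lie side by side on chromosome 8. CA13 spans chr8:85220587-85284073 on the plus strand, CA1 chr8:85327608-85379014 on the minus strand, CA3 chr8:85373436-85449040 and CA2 chr8:85463852-85481493 on the plus strand, a stretch of 260907 bases in all. CA1 and CA3 overlap by 5579 bases on opposite strands. The use of strand in the counting is not stated in the sources used here, so reads in the overlap cannot be assigned to either gene with certainty. CA8 lies apart at chr8:60187347-60281412 on the minus strand.

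CA1 encodes the low-activity carbonic anhydrase that is among the most abundant proteins of mature red cells after hemoglobin. Untreated WT libraries had 16, 8 and 16 counts of CA1 and treated WT libraries had 389, 169 and 114. Untreated KO libraries had 1, 0 and 1 and treated KO libraries had 0, 0 and 0. CA1 was thus above the limit in every WT library and at or under it in every KO library.

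With butyrate, CA1 rose in WT cells from 0.592 ± 0.252 to 10.3 ± 8.70 CPM (SD, n = 3 each), a log2 fold change of 4.12 (SE 0.76, edgeR adjusted p = 0.0240). The ratio within replicate numbers was 23.3, 19.4 and 6.73. The call was lost without untreated WT replicate 1 (adjusted p = 0.0829), 2 (0.111) or 3 (0.0857) and without treated WT replicate 2 (0.0669), and without treated WT replicate 1 the log2 fold change was 3.18 (0.0269). No fold is given for butyrate in KO cells, where both groups were at or under the limit.

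The KO level of CA1 was below the WT level without butyrate (edgeR adjusted p = 0.0127) and with it (adjusted p = 0.000158), and both calls held in each of the 12 fits that left out 1 library. Set against the limit of 3 counts per library, it was at least 4.4-fold lower in untreated KO and at least 92.9-fold lower in treated KO cells. These bounds ran from 3.38 to 5.22 and from 48.7 to 123.1 when single libraries were left out, the 48.7 being without treated WT replicate 1. The interaction of CA1 had an unadjusted p of 0.00707 and an adjusted p of 0.748. The median erythroid marker sum was 41654 CPM in treated WT and 5919 in treated KO libraries, and its part in the CA1 difference was not tested.

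CA13 encodes another cytosolic carbonic anhydrase. Untreated WT libraries had 9.42, 6.12 and 5.35 CPM and treated WT libraries had 3.27, 4.18 and 4.13 CPM. Untreated KO libraries had 0.856, 0.904 and 1.20 CPM and treated KO libraries had 1.06, 2.08 and 0.838 CPM. All KO libraries were below all WT libraries, and all treated WT libraries were below all untreated ones.

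CA13 was lower in KO cells by a log2 difference of -2.80 in untreated cells (SE 0.46, edgeR adjusted p = 0.000914), which each of the 12 fits with 1 library left out called, and of -1.54 in treated cells (SE 0.44, adjusted p = 0.0283). The treated call was lost without treated WT replicate 2 (0.0835) or 3 (0.0725) and without treated KO replicate 1 (0.0856) or 3 (0.0971), and in a fit of the treated libraries alone (0.101). The log2 fold change with butyrate was -0.85 in WT (SE 0.43, adjusted p = 0.329) and 0.42 in KO cells (SE 0.45, adjusted p = 0.653), and neither passed. In WT the direction of CA13 was thus opposite to that of AQP1, CA1 and CA8, though the exact permutation test of its 3 against 3 libraries gave p = 0.1, the smallest that design allows.

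The neighbours of the cluster differed among themselves. Of 14 genes of the count table within 1 Mb on each side, cluster genes included, 6 were tested. LRRCC1 was lower in KO cells by -0.92 in untreated (adjusted p = 0.0223) and in treated cells (0.0262), and RMDN1 by -0.58 (0.0399) and -0.86 (0.00640). E2F5 (0.13 and -0.37) and WWP1 (-0.05 and -0.48) did not pass. The median over 475 tested genes of chromosome 8 was -0.06 in untreated and -0.11 in treated cells.

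CA8 encodes a carbonic anhydrase-related protein that lacks enzyme activity and binds the inositol trisphosphate receptor ITPR1. Untreated WT libraries had 3.25, 2.46 and 1.92 CPM, treated WT libraries 15.1, 9.005 and 7.88, untreated KO libraries 20.0, 18.03 and 22.1, and treated KO libraries 30.1, 32.8 and 37.1 CPM. The 4 groups did not overlap and followed each other in that order. Its level in untreated KO cells was thus above that in treated WT cells.

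CA8 rose with butyrate in WT cells by a log2 fold change of 2.07 (SE 0.30, edgeR adjusted p = 0.00721), with ratios within replicate numbers of 4.66, 3.66 and 4.11. Without treated WT replicate 1 it was 1.73 (adjusted p = 0.00499), and it passed in each of the 12 fits that left out 1 library. In KO cells the log2 fold change was 0.73 (SE 0.28), with ratios of 1.503, 1.82 and 1.68, and did not pass (adjusted p = 0.174). CA8 was higher in KO than in WT cells by 2.99 in untreated (SE 0.31, adjusted p = 3.01e-05) and by 1.64 in treated cells (SE 0.29, adjusted p = 0.00184), and each of the 12 fits called both. The estimated difference of the butyrate effects, KO less WT, was -1.34 (SE 0.41) and did not pass (unadjusted p 0.00614, adjusted p 0.735).

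CA2 encodes the fast carbonic anhydrase of red cells and many other tissues. It had 0, 1 and 0 counts in untreated WT, 0, 8 and 7 in treated WT, and 0 in all 6 KO libraries. Replicates 2 and 3 of treated WT were the 2 libraries above 3 counts. Without the count filter its KO to WT difference in treated cells had an adjusted p of 0.159.

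CA3 encodes a carbonic anhydrase known mostly from skeletal muscle. It had 7, 7 and 7 counts in untreated WT, 1, 3 and 12 in treated WT, 0, 0 and 0 in untreated KO, and 0, 5 and 9 in treated KO libraries. Untreated KO cells were at least 2.33-fold below untreated WT cells against the limit, and without the count filter the adjusted p of that difference was 0.0505. The treated groups overlapped.

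SLC14A1 lies on the plus strand at chr18:45687025-45752520. It had 0, 18 and 5 counts in untreated WT, 7, 9 and 22 in treated WT, 0, 0 and 0 in untreated KO and 0, 4 and 2 in treated KO libraries. The untreated groups overlapped at 0, and the treated KO libraries were all below the treated WT libraries. Without the count filter the KO to WT difference had an adjusted p of 0.0549 in untreated and 0.276 in treated cells. SLC14A1 entered 10 of the fits that left out 1 library, and the untreated difference passed in 2 of them, without untreated WT replicate 1 (0.0289) and without treated KO replicate 1 (0.0475). The untreated difference also passed without the 4 libraries numbered 1 (0.0286). Untreated WT replicate 1 was the untreated WT library with 0 counts. SLC14A1 entered these fits through WT libraries, so its being tested and its being higher in WT are not separate facts. Tested genes of chromosome 18, 187 in number, had a median KO to WT log2 difference of -0.52 in untreated and -0.66 in treated cells, and the part of this in the SLC14A1 counts was not tested.

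To compare genes with each other, the level in CPM was divided by the exon length in kilobases. In untreated WT cells the order of mean levels was AQP3 (7.52 CPM per kilobase), AQP1 (2.696), CA13 (1.26), CA8 (0.440), CA1 (0.146), CA3 (0.136), SLC14A1 (0.0466) and CA2 (0.00729). The ranges of neighbours in this order overlapped except between CA13 and CA8 and between CA8 and CA1. Without untreated WT replicate 1, AQP3 was at 3.07 and AQP1 at 3.05. In treated WT cells the order began AQP1 (17.4), AQP3 (16.3), CA1 (2.54), CA8 (1.85) and CA13 (0.698), where the ranges of AQP1 and AQP3 and of CA1 and CA8 overlapped. Without treated WT replicate 1 both of these orders turned round, with AQP3 at 12.07 and AQP1 at 11.8, and CA8 at 1.46 and CA1 at 1.33. AQP3 was also above AQP1 without treated WT replicate 3 (20.1 against 18.9). CA2, CA3 and SLC14A1 were under 0.1 on average and overlapped each other.

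In untreated KO cells the order was AQP3 (8.96), CA8 (3.47), AQP1 (0.373), CA13 (0.179) and CA1 (0.00712), with the ranges of AQP1 and CA13 overlapping. In treated KO cells it was AQP3 (28.99), CA8 (5.76), AQP1 (1.47), CA13 (0.240), CA3 (0.0657) and SLC14A1 (0.00912), where the ranges of neighbours from AQP3 to CA3 did not overlap. CA8 took 3.59% of the summed mean level of the 8 members in untreated WT and 26.7% in untreated KO cells, and AQP1 took 22.0% and 2.87%. The AQP1 share in untreated WT was 38.9% without replicate 1 and 13.7% without replicate 3, and that of AQP3 was 61.4%, and 39.1% without replicate 1. With butyrate AQP1 took 44.5% in WT and 4.02% in KO cells, and AQP3 took 41.8% and 79.4%. Without treated WT replicate 1 the WT shares were 42.5% for AQP1 and 43.5% for AQP3, and without treated KO replicate 1 AQP1 took 2.44% in KO cells.

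**Figure D3:**
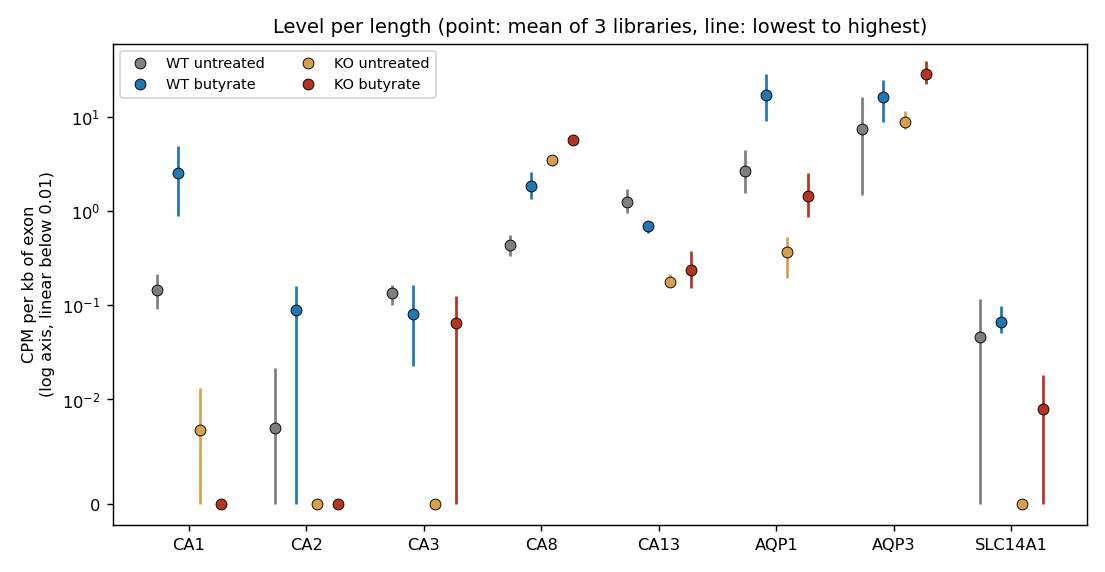
Mean level per kilobase of exon in each group on a log axis that is linear below 0.01, with lines from the lowest to the highest of 3 libraries. AQP3 was at 7.52 or above in every group mean, CA8 was higher in each KO group than in each WT group, and CA1 was at 0 in treated KO cells.

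For each tested member the 3 genes with the most like pattern over the 12 libraries were found by the root mean square difference of centred log2 CPM. This is a description of 12 libraries that share genotype and treatment. Genes near to CA1 included KRT13 (0.88) and TNS1 (0.97), where the median over all tested genes was 2.78. CA8 was nearest to NPW (0.35), PLPP7 (0.38) and SLC44A1 (0.47), with a median of 1.52. CA13 was nearest to RAB13 (0.39), ECM1 (0.40) and PIP4P2 (0.40), with a median of 1.31. AQP1 was nearest to HBBP1 (0.51), a pseudogene of the beta-globin cluster, then to ATP6V1FNB (0.72) and CKMT1A (0.80), with a median of 2.13. AQP3 was nearest to DHH (0.66), TVP23A (0.66) and SPNS2 (0.69), with a median of 1.39, and these values lay closest to their median.

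Of 10 other carbonic anhydrases 6 were tested, and 0 passed with butyrate in WT cells (median log2 fold change -0.18, against 0.02 over all tested genes). In KO cells CA4, a membrane-anchored form, rose with butyrate (adjusted p = 0.0381), from 0 to 2 counts in untreated to 17 to 99 in treated KO libraries, and this call passed in 2 of 12 fits that left out 1 library (highest adjusted p 0.177). CA4 passed the count filter through those treated KO libraries, so its being tested and its being high there are not separate facts. CA14, also membrane-bound, was the member of that list higher in KO cells, by 1.84 in untreated (adjusted p = 0.0364, passing in 5 of 12 such fits) and by 2.01 in treated cells (0.0285, 8 of 12). With the replicate block CA12 also passed in untreated cells, lower in KO (adjusted p = 0.0215). Of 12 other aquaporins and the urea transporter SLC14A2, 4 were tested. AQP10 was higher in untreated KO than in untreated WT cells, at 20.1 ± 11.5 against 4.07 ± 0.401 CPM (SD, n = 3 each, log2 difference 2.30, adjusted p = 0.00519), and every one of the 12 such fits called it, and 0 of the 4 passed with butyrate in WT or in KO cells. In treated cells 0 of the 4 passed between genotypes, and 1 (AQP10, adjusted p = 0.0409) with the block.

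Bicarbonate and anion exchangers, the transport partners of the carbonic anhydrases, held 10 tested genes of 12. SLC4A1, band 3, which is also on the erythroid marker list, rose with butyrate in WT from 1.03 ± 1.04 to 31.0 ± 23.9 CPM and in KO from 1.72 ± 0.589 to 18.3 ± 8.21 CPM (SD, n = 3 each), with log2 fold changes of 4.86 (adjusted p = 0.0102) and 3.40 (0.0272). In WT the call was lost without untreated replicate 1 (0.0599) or 2 (0.0524), the fold change was 6.16 without untreated replicate 3 and 4.01 without treated replicate 1. In KO it passed in 7 of 12 fits that left out 1 library, and failed without any of the untreated KO replicates or treated KO replicates 2 and 3 (adjusted p of 0.0534 to 0.141).

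SLC4A3 also rose, by 3.01 in WT (adjusted p = 0.0484, 4 of 12 fits) and 5.14 in KO cells (0.00773, 11 of 12, with 0.0637 without untreated KO replicate 2, and with 6.37 on the log2 scale without untreated KO replicate 3). The other 8 tested exchangers did not pass with butyrate in either genotype without the replicate block. With the block 2 of the 10 were higher and 1 lower in WT, the latter SLC4A7 (-1.21 without the block, adjusted p = 0.0707, and 0.0137 with it), and 4 were higher in KO cells, where 8.61% and 11.7% of all tested genes passed. SLC4A2, the exchanger of most other cells, was lower in KO than in WT cells by -1.22 in untreated (adjusted p = 0.00322) and -1.21 in treated cells (0.00412), and SLC4A7, a sodium and bicarbonate cotransporter, was higher by 1.27 in treated cells (0.0148, and 0.0635 without treated KO replicate 2). SLC4A1 and SLC4A3 did not pass between genotypes, though SLC4A3 was lower in untreated KO cells with the block (adjusted p = 0.0377). Median log2 fold changes of the 10 were 0.59 in WT and 1.23 in KO with butyrate.

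All 15 genes of red cell gas and ion handling were tested. With butyrate 1 passed in WT (STOM, stomatin, lower by -1.26, adjusted p = 0.0377, in 3 of 12 fits that left out 1 library) and 0 in KO cells, while 4 in each had an unadjusted p under 0.05. A fit with the replicate block called 2 higher and 1 lower in WT, and 3 higher in KO cells. Between genotypes 7 passed in untreated (3 higher and 4 lower in KO) and 6 in treated cells (2 higher and 4 lower), where 22.6% and 19.0% of all tested genes passed. The median log2 difference was -0.26 and -0.35, against 0.02 and -0.00 over all tested genes.

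RHAG, the Rh-associated glycoprotein that conducts ammonia and may conduct carbon dioxide, was lower in KO cells by -1.46 in untreated (adjusted p = 0.000552) and -1.499 in treated cells (0.000623). KCNN4, the Gardos potassium channel that sets red cell volume, was lower by -4.56 (0.000265) and -2.76 (0.00510), the latter -1.71 without treated WT replicate 1. XK, the partner of the Kell protein, was higher by 3.07 (0.000103) and 1.51 (0.0104, and 0.0504 without treated WT replicate 2), and ATP1B3, a sodium pump subunit, by 1.48 (3.98e-05) and 0.97 (0.00112). In the interaction 0 genes of these 4 lists passed in edgeR.

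**Figure D4:**
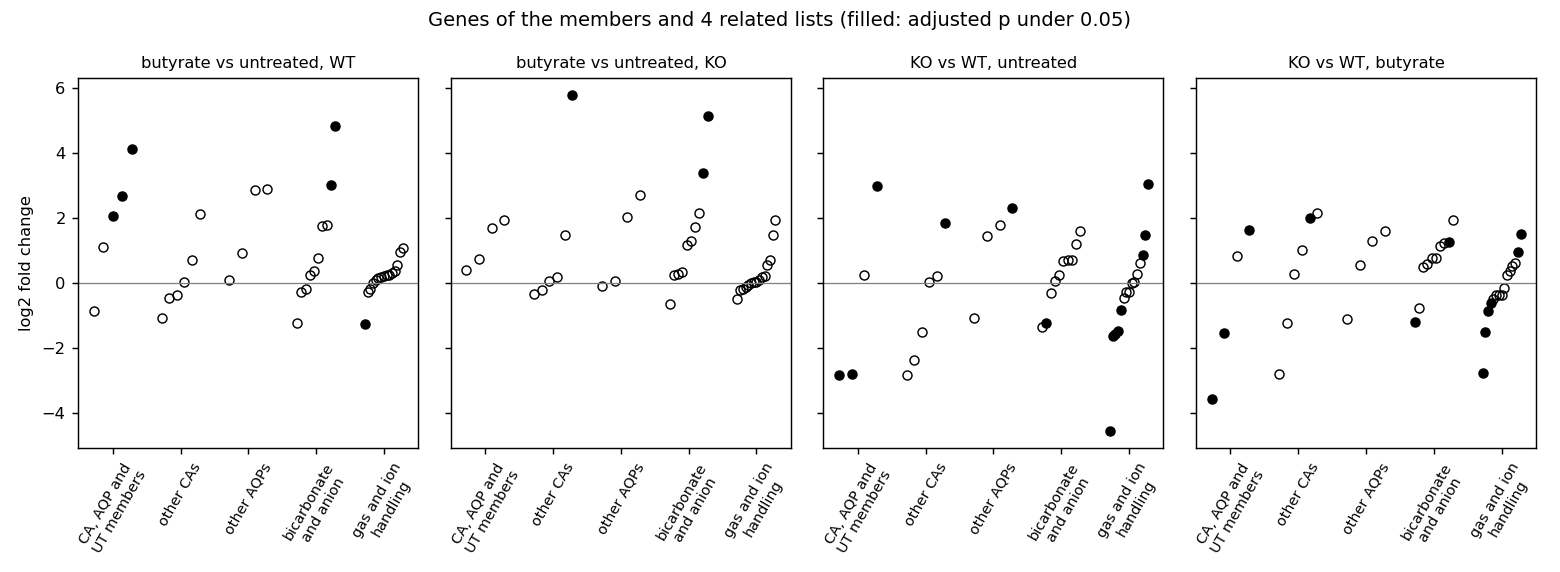
Log2 fold changes of the tested members and of 4 related lists in each comparison, 1 circle per gene, filled where the adjusted p was under 0.05. CA1 is left out of the panels in which a KO group was at the limit. Other genes with a group at or under the limit are drawn as fitted, among them CA4 with butyrate in KO (filled) and AQP6 with butyrate in WT (open). The filled points include SLC4A1 (4.86 in WT and 3.40 in KO with butyrate) and KCNN4 (-4.56 in untreated cells).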

How the data were processed

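The authors deposited whole-number counts per gene symbol for the 12 libraries, and the unit was read from the values. Per the submitters' processing notes, FastQC 0.12.1, STAR 2.7.11b and hg38 were used. The counting tool, annotation and use of strand are not given in the sources used here. Groups came from sample titles, and 0 columns were left unused. The deposited counts went unchanged into edgeR 4.0.16 (R 4.3.3), where filterByExpr (minimum count 10) kept 15805 of 28278 genes (6319 had 0 counts throughout), TMM scaled the libraries, and a quasi-likelihood fit of 4 group means (biological coefficient of variation 0.384) gave 5 contrasts, tested with Benjamini-Hochberg adjustment at 0.05. A simulation of the butyrate comparison in WT on 15404 genes called 18% of genes changed 2-fold and 63.6% of those changed 4-fold, with 4 false calls. Its counts came from a single mean per gene and the spread fitted for genes of that level, without an effect of replicate number. These shares may therefore not hold for the members. Log2 CPM had a prior count of 2. Gene positions and exon lengths were from GENCODE 29, and 14790 tested genes (93.6%) matched 1 entry, so levels per kilobase depend on that annotation. Limits of detection cover counting error only.

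Members and related gene lists were chosen with earlier results of these data known. Named genes were the members, the lists, the targeted gene, cluster neighbours and, for tested members, the 3 most like genes, of which 1 is not reported here. The neighbour and chromosome values, and levels per kilobase without single libraries, were added after seeing the data. The pairing was checked by correlating the deviations of libraries from their group means. For the same replicate number, correlations ran from 0.195 to 0.409 for butyrate in WT and 0.147 to 0.468 in KO. They ran from 0.210 to 0.361 between untreated and 0.315 to 0.595 between treated genotypes. These were all over 0.1, so the numbers were taken to pair the libraries. For different numbers they ran from -0.439 to 0.186, -0.441 to 0.123, -0.288 to 0.0692 and -0.512 to 0.343, in that order. For pairs of the same number that differed in genotype and treatment they ran from -0.00298 to 0.355. The main fit used no block, because the study states none, and the block was an alternative. Alternatives were DESeq2 1.42.0, library size alone, other filters, the groups of the contrast alone, the replicate block, and leaving out libraries.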

Additional observations from a re-analysis of the deposited data

How the results depend on the processing

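Of 488 values for single members under 20 alternative fits, 462 kept their direction and side of the threshold, 16 lost and 6 gained a call, and 4 turned direction without a call. Those 4 were CA13 with butyrate in KO cells (-0.071 without treated KO replicate 2, to 0.68), AQP3 between genotypes in untreated cells (-0.23 without untreated WT replicate 2 and -0.01 without replicate 3, to 1.54) and AQP3 in the interaction (-0.71 without untreated WT replicate 1, to 1.06), each with the highest value without another single library. Members past the threshold for butyrate in WT numbered 0 in a fit of the WT groups alone, 1 to 3 when each library was left out in turn, and 4 without the libraries numbered 1. In KO cells they numbered 1 with DESeq2, 1 in the fit of the KO groups alone, 2 with the replicate block and 1 without the libraries numbered 1. The replicate block changed no other member's call. Calls over all genes moved more: for butyrate in WT 372 became 1331 with DESeq2, 63 with the WT groups alone, 1361 with the block, 1884 without the libraries numbered 1 and 43 to 1243 without single libraries. In KO 537 became 1538, 1852 and 2164 with DESeq2, the block and without the libraries numbered 1, 304 with at least 10 counts in every library and 48 to 1039 without single libraries. Between genotypes 3574 became 2334 and 3009 became 1947 with at least 10 counts in every library, and the latter 1802 with the treated groups alone and 4612 with the block. The interaction had 86 calls with DESeq2, 9 without the libraries numbered 1, 3 with the block, 2 without the filter, 1 with at least 10 counts and 0 to 2 without single libraries. Scaling by library size alone shifted the median of all genes to 0.12 for butyrate in KO. For CA2, CA3 and SLC14A1 depth limits what can be detected. The cause of these changes was not tested.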
